A study of Mus musculus with 3 samples.

Results

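The Ifit and Oas antiviral interferon genes are a set of 10 genes chosen by name: *Ifit1*, *Ifit2*, *Ifit3*, *Ifit3b*, *Oasl1*, *Oasl2*, *Isg15*, *Rsad2*, *Usp18* and *Mx1*. Of these 10 genes, 9 had a row among the 32285 genes of the count files, and *Mx1* was not analysed here. They were followed in glomerular cells of mouse kidneys by droplet single-cell RNA sequencing, in which each RNA molecule carries a unique molecular identifier (UMI). There were 3 groups with 1 library each. The first is from control mice, labelled as a blank control. The study bought female MRL/MpJ mice and used this strain as control in other experiments, but the sources used here do not name the strain, sex or age of the control mice of the single-cell experiment. The second is from MRL/lpr mice, a strain that carries the lpr mutation of the death receptor gene *Fas* and develops lupus nephritis. They were female and entered the model group at about 16 weeks of age, when urinary protein kept increasing and hair was being lost. The third is from MRL/lpr mice that received 800000 mesenchymal stem cells of human umbilical cord (hUC-MSCs) through the tail vein. Both MRL/lpr libraries were made at day 21 after treatment. Kidneys were digested with collagenase V and glomeruli were separated before dissociation. The number of mice behind a library is not given in the sources used here, so mouse-to-mouse variation could not be measured and groups were not tested against each other. Strain, disease, treatment and the preparation of a library cannot be told apart.

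Interferons are secreted by cells that sense foreign or misplaced nucleic acid, and they signal through receptors and Janus kinases to transcription factors in the nucleus. These bind the interferon-stimulated response element (ISRE), a DNA element found before many antiviral genes, and switch them on together. Raised expression of these genes in blood and kidney is a known feature of human lupus. In the glomerulus, endothelial cells line the capillaries, mesangial cells hold the capillary loops together, and podocytes cover them from outside.

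The genes lie on 5 chromosomes in the mouse genome GRCm38. *Ifit2*, *Ifit3*, *Ifit3b* and *Ifit1* stood side by side within 99.3 kb of chromosome 19, and *Oasl2* and *Oasl1* within 41.0 kb of chromosome 5. The 4 Ifit genes ran from *Ifit2* (chr19:34550694-34576419) through *Ifit3* (chr19:34583531-34588731) and *Ifit3b* (chr19:34607970-34613401) to *Ifit1* (chr19:34640871-34650009), all on the plus strand. *Oasl2* (chr5:114896936-114912234) and *Oasl1* (chr5:114923240-114937915) were also on the plus strand, as was *Usp18* (chr6:121245906-121270917). *Isg15* (chr4:156199424-156200818) and *Rsad2* (chr12:26442746-26456452) were on the minus strand. Promoter sequences were taken from RefSeq (GRCm38.p6), where 8 of the 9 genes had an entry and *Usp18* had none. In the 250 bases before the annotated start, the ISRE pattern GAAANNGAAA was searched on both strands. It was found for 5 of the 8 genes, while it was present in 2.98% of 32851 promoters of the same length, or for 936 of 27025 genes. In gene lists described further on, it was found for 6 of 10 genes biased to interferon gamma and 8 of 20 other antiviral genes. For interferon ligands this was 3 of 9, for sensors 1 of 7, for signalling genes 1 of 8, for receptors 0 of 5 and for stress genes 0 of 9. The pattern TTCNNNGAA, known as the gamma-activated sequence, was found for 1 of the 8 genes, *Ifit2*, and in 7.02% of all promoters. *Ifit2*, *Oasl1* and *Oasl2* had no ISRE match in this window, which says only that these letters are not there. The 5 promoters with a match are shown from base -200 to base -51, with the matches in capitals, because the sequence that these genes share is the one through which interferon is known to act:
Isg15, chr4:156200869-156201018, minus strand: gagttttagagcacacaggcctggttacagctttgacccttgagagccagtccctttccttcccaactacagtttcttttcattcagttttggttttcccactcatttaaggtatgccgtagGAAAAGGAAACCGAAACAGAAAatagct
Ifit1, chr19:34640689-34640838, plus strand: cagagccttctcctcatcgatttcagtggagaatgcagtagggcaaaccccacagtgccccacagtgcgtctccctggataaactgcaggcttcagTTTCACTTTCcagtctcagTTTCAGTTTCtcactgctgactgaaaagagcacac
Ifit3, chr19:34583329-34583478, plus strand: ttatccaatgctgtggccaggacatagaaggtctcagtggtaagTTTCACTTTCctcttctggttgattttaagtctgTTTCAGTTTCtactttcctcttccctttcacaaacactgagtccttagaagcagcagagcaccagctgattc
Ifit3b, chr19:34607757-34607906, plus strand: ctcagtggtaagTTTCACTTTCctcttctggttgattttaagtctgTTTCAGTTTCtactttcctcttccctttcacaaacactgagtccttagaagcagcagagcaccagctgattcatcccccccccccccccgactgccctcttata
Rsad2, chr12:26456503-26456652, minus strand: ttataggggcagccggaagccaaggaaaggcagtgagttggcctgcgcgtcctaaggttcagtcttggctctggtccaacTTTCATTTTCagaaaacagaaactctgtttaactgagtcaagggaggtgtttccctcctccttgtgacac

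In *Isg15* there were 3 overlapping matches on the strand of the gene, from base -78 to base -57. *Ifit1*, *Ifit3* and *Ifit3b* each had 2 matches on the other strand, and *Rsad2* had 1. The paired matches of *Ifit3* and *Ifit3b* had the same letters, and they began at bases -156 and -122 in *Ifit3* and at -188 and -154 in *Ifit3b*. *Ifit3* and *Ifit3b* are near copies of each other. Their longest transcripts were identical at 98.0% of 1697 aligned bases, so many reads may fit both and their separate counts are uncertain. The last 300 bases of *Ifit3* were 95.3% identical to *Ifit3b*, but the last 300 bases of *Ifit3b* were 61.6% identical to *Ifit3*. *Usp18* overlaps the annotated gene *Gm44148* on the opposite strand over 15715 bases, and *Oasl1* overlaps *Gm13822* over 38 bases. How strand was used in counting is not given in the sources used here.

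**Figure D1:**
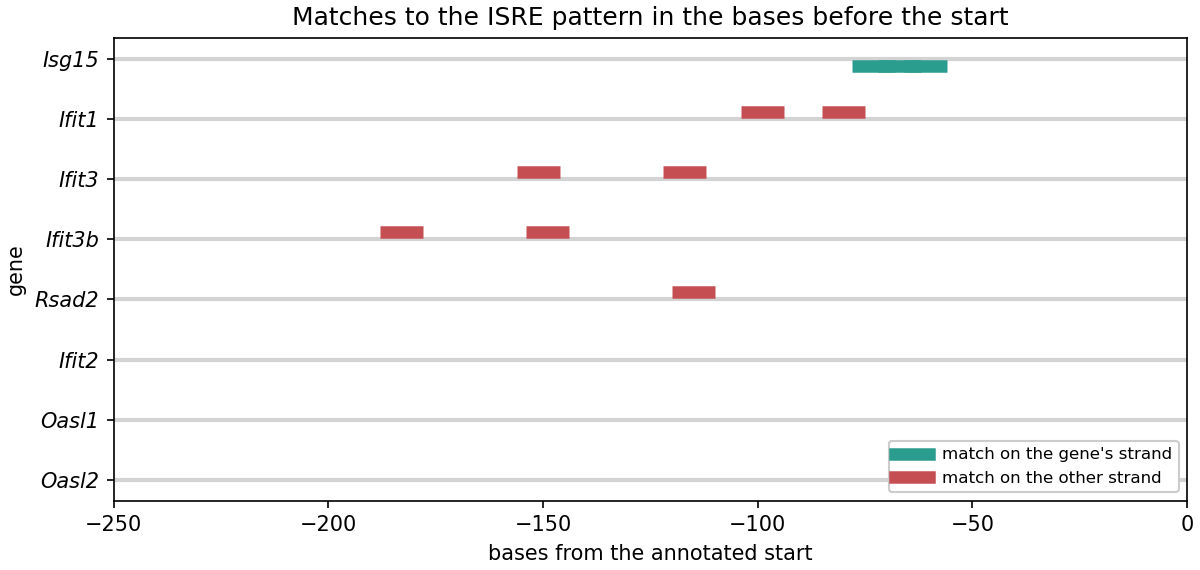
Position of ISRE matches (coloured bars) in the 250 bases before the annotated start of 8 genes, with the distance from the start in bases on the x axis and colour marking the strand of the match. The matches of 5 genes lie between base -188 and base -57, and 3 genes have none.

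The libraries held 90812138 to 103319588 UMIs. Barcodes with at least 1000 UMIs and at most 10% mitochondrial UMIs numbered 11018 in the control, 14109 in the untreated MRL/lpr and 16586 in the treated library, where the labels state that about 8000 cells were captured. Marker genes placed 10090, 11495 and 12972 of them in 1 of 6 classes. The others were below every marker level (554, 717 and 709) or had markers of more than 1 class (374, 1897 and 2905). Libraries shared 35, 39 and 61 barcodes in pairs, and no barcode was in all 3. Endothelial cells numbered 6051, 4381 and 5319 in the control, untreated and treated libraries, with medians of 4321, 3769 and 3031 UMIs per cell. Their 12 endothelial markers summed to 10360, 9943 and 11030 CPM (UMIs per 1000000 UMIs of the class). Free RNA, read from barcodes with 1 to 100 UMIs, held 3368, 3343 and 4187 CPM of the same markers. All intervals given are exact 95% intervals and cover counting error only.

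The summed level of the 9 genes was highest in endothelial cells among the 6 classes in each library, though not for every gene or within cells of low stress RNA, as given further on. The sum in endothelial cells was 3549 CPM (3528 to 3570) in the control library, 1882 (1864 to 1901) in the untreated MRL/lpr library and 659 (648 to 670) in the treated library. Endothelial cells were thus in the order control, untreated, treated, with intervals that did not overlap. In mesangial cells the sum was 2063, 588 and 448 CPM, and in podocytes it was 164, 91.6 and 68.0 CPM. Myeloid cells had 2208, 375 and 311 CPM, with 142 cells in the control library and 2786 and 4844 in the others. T/NK cells had 256, 168 and 132 CPM, and tubule cells had 663, 166 and 118 CPM. Few cells weighed heavily among the 177 tubule cells of the control library. The highest count in a single cell was 97 of the 265 *Ifit1* UMIs and 40 of the 103 *Ifit3* UMIs. The same order of libraries was seen in each of the 6 classes and in free RNA, which held 1522, 620 and 435 CPM. Podocyte, T/NK and tubule cells lay below free RNA in each library, as did mesangial cells in the untreated library, at 588 CPM, and myeloid cells in both MRL/lpr libraries, at 375 and 311 CPM. Endothelial cells lay above free RNA in each library. What free RNA adds was estimated for endothelial cells, as given further on, and was not tested for the other classes.

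**Figure D2:**
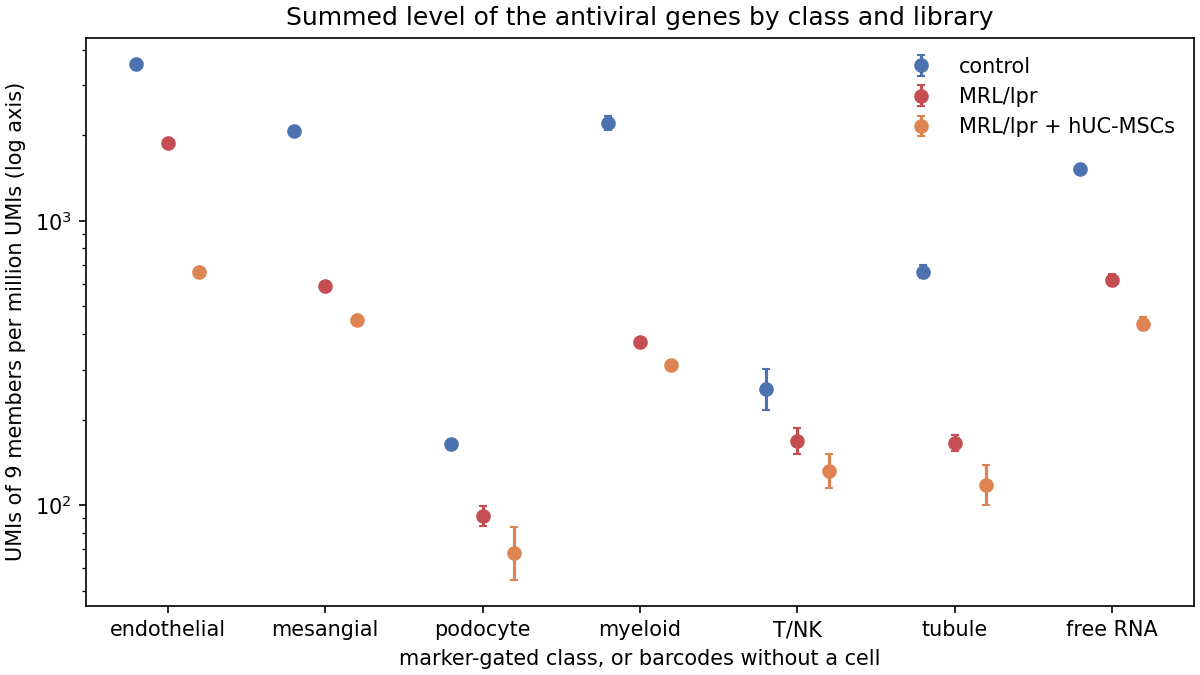
Summed level of the 9 genes (UMIs per 1000000 UMIs, log axis) in 6 marker-gated classes and in free RNA, with 1 point per library and bars for 95% counting intervals. Endothelial cells are the highest class in each library, and in every class the control point is the highest and the treated point the lowest.

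Single genes did not all follow the sum. In the control library *Ifit3* and *Ifit3b* were higher in mesangial cells, with 268 and 237 CPM, than in endothelial cells, with 231 and 155 CPM, and *Oasl1* was higher in myeloid cells, with 125.5 against 71.7 CPM. In the untreated library *Ifit3b* was higher in mesangial cells, with 63.2 against 41.8 CPM. In the treated library mesangial cells were above endothelial cells for *Ifit3* (58.1 and 38.5 CPM), *Ifit3b* (41.7 and 21.4 CPM) and *Usp18* (48.2 and 28.4 CPM). There the mesangial and endothelial levels of *Ifit1* (47.3 and 46.5 CPM) and *Oasl2* (65.3 and 63.9 CPM) were close.

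Of all member UMIs in the 6 classes, endothelial cells gave 75.6% in the control, 76.1% in the untreated and 56.5% in the treated library. They were 60%, 38.1% and 41.0% of the cells placed in a class. Mesangial cells gave 20.4%, 10.8% and 21.5% of member UMIs. Myeloid cells gave 0.916%, 9.49% and 20.2%, while they were 1.41%, 24.2% and 37.3% of the cells placed in a class.

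The Ifit proteins bind viral RNA and block its translation, and the level of *Ifit1* in endothelial cells was 578 CPM in the control, 235 in the untreated and 46.5 in the treated library. Each step was a large one, and *Ifit1* in the treated library was the lowest of the 3 by far. *Ifit3* had 231, 91.4 and 38.5 CPM and *Ifit3b* had 155, 41.8 and 21.4 CPM, in the same order of libraries. *Ifit2* took another course, with 150, 164 and 73.0 CPM, so that the control and untreated libraries were close and the treated library was apart.

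*Isg15* encodes a small protein that is attached to other proteins in the manner of ubiquitin, and it gave the most UMIs of the set. Its level in endothelial cells was 1665, 764 and 201 CPM in the control, untreated and treated libraries, which was 46.9%, 40.6% and 30.5% of the member UMIs. *Usp18*, the protease that takes ISG15 off again and also restrains the interferon receptor, had 131, 39.6 and 28.4 CPM. For *Usp18* most of the difference lay between the control and the untreated library.

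*Oasl1*, which restrains production of the transcription factor IRF7, had 71.7, 35.8 and 15.7 CPM. *Oasl2*, which is related to the enzymes that make the activator of RNase L, had 218, 108 and 63.9 CPM. *Rsad2*, also called viperin, makes a nucleotide that stops viral polymerases, and it had 349, 404 and 171 CPM. As with *Ifit2*, the highest library for *Rsad2* was the untreated MRL/lpr one. *Rsad2* gave 9.84% of the member UMIs in the control, 21.4% in the untreated and 25.9% in the treated library, so the make-up of the set was not the same in the 3 libraries.

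**Figure D3:**
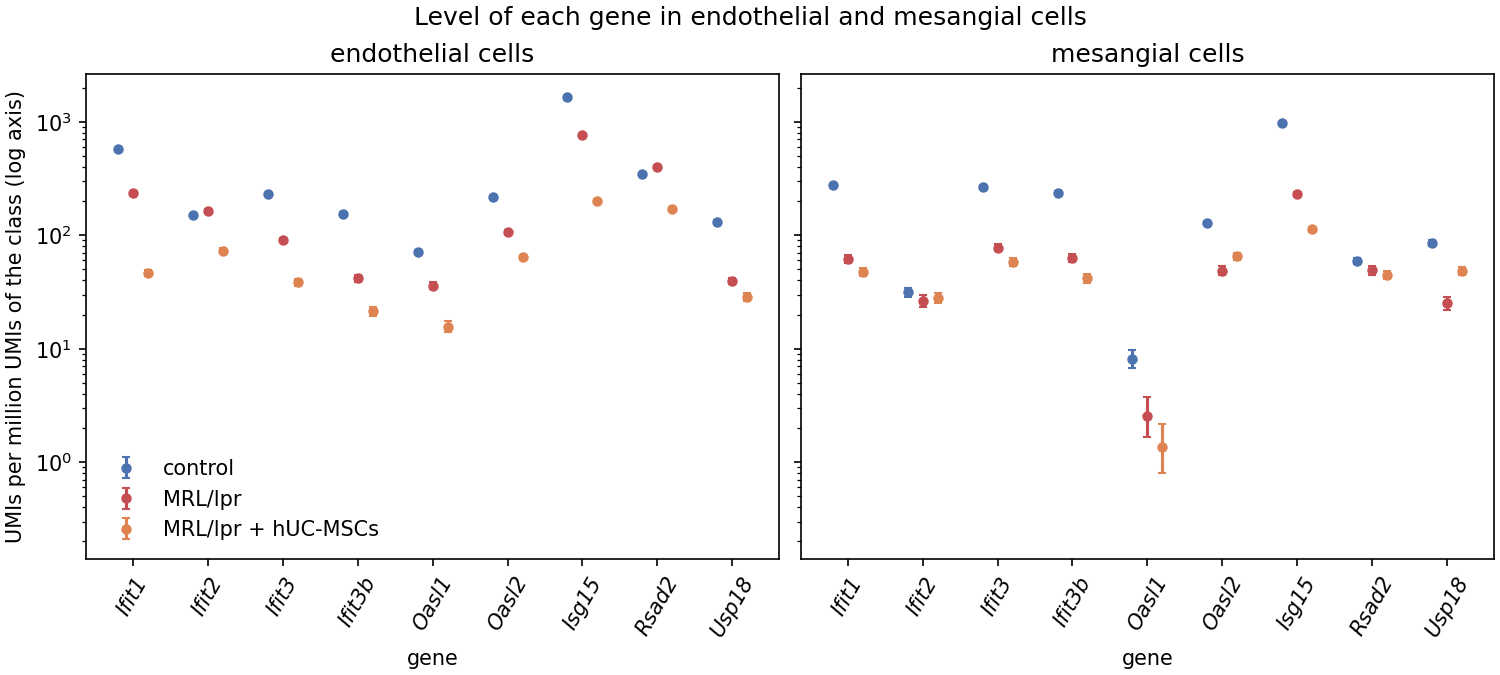
Level of each of the 9 genes (UMIs per 1000000 UMIs of the class, log axis) in endothelial cells (left) and mesangial cells (right), with 1 point per library and 95% counting intervals. In endothelial cells the treated library is lowest for all 9 genes, and the untreated library is above the control for *Ifit2* and *Rsad2* alone.

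The first comparison asks how the genes differed between lupus-prone and control glomeruli. In endothelial cells 7 of the 9 genes were at least 2-fold lower in untreated MRL/lpr mice than in control mice, where 5.92% of 15275 genes were that much lower, and 0 were at least 2-fold higher, where 11.9% were. Here 2-fold is a limit of size, since 1 library per group allows no test. The largest log2 differences were those of *Ifit3b*, -1.89 (-1.995 to -1.79), and *Usp18*, -1.73 (-1.84 to -1.63). *Ifit3* was at -1.34, *Ifit1* at -1.30 and *Isg15* at -1.12. *Oasl2*, at -1.02 (-1.09 to -0.95), and *Oasl1*, at -1.0 (-1.12 to -0.88), lay at the limit itself. In glomerular capillary endothelium, described further on, they were at -0.986 and -0.961, short of 2-fold. *Ifit2*, at 0.13 (0.07 to 0.20), and *Rsad2*, at 0.21 (0.17 to 0.25), were higher by more than counting error. The sum of the 9 genes was 1.89-fold lower (log2 -0.92, -0.93 to -0.90), and the median of all genes was 0.06. In cells with under 2% of their UMIs from stress genes, described further on, 3 of the 9 genes were at least 2-fold lower, where 5.26% of all genes were, and the sum was at -0.33. Direction changed for *Oasl1*, at 0.0948 in these cells, and for *Ifit2*, at -0.235 in cells with 5% or more.

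The second comparison asks how the genes differed after hUC-MSCs. In endothelial cells 6 of the 9 genes were at least 2-fold lower in treated than in untreated MRL/lpr mice, where 4.57% of 15325 genes were that much lower, and 0 were at least 2-fold higher, where 7.13% were. All 9 intervals were below 0, but the share of all genes with such intervals was not counted. *Ifit1* differed most, at -2.34 (-2.43 to -2.24), followed by *Isg15* at -1.93 (-1.97 to -1.88). *Ifit3* was at -1.25, *Rsad2* at -1.24, *Oasl1* at -1.20 and *Ifit2* at -1.17. The 3 genes short of 2-fold were *Ifit3b* at -0.97, *Oasl2* at -0.75 and *Usp18* at -0.48 (-0.63 to -0.33). The sum was 2.86-fold lower (log2 -1.51, -1.54 to -1.49), while the median of all genes was 0.13. In cells with under 2% of their UMIs from stress genes, 2 of the 9 genes were at least 2-fold lower, where 4.48% of all genes were. In the 100, 52 and 82 endothelial cells with at most 5% ribosomal-protein UMIs, 3 of 8 genes with enough UMIs were at least 2-fold lower in the first comparison, where 2.93% of all genes were, and 2 of 3 in the second, where 4.16% were. The untreated library enters both comparisons, so their values are given side by side and not related to each other.

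**Figure D4:**
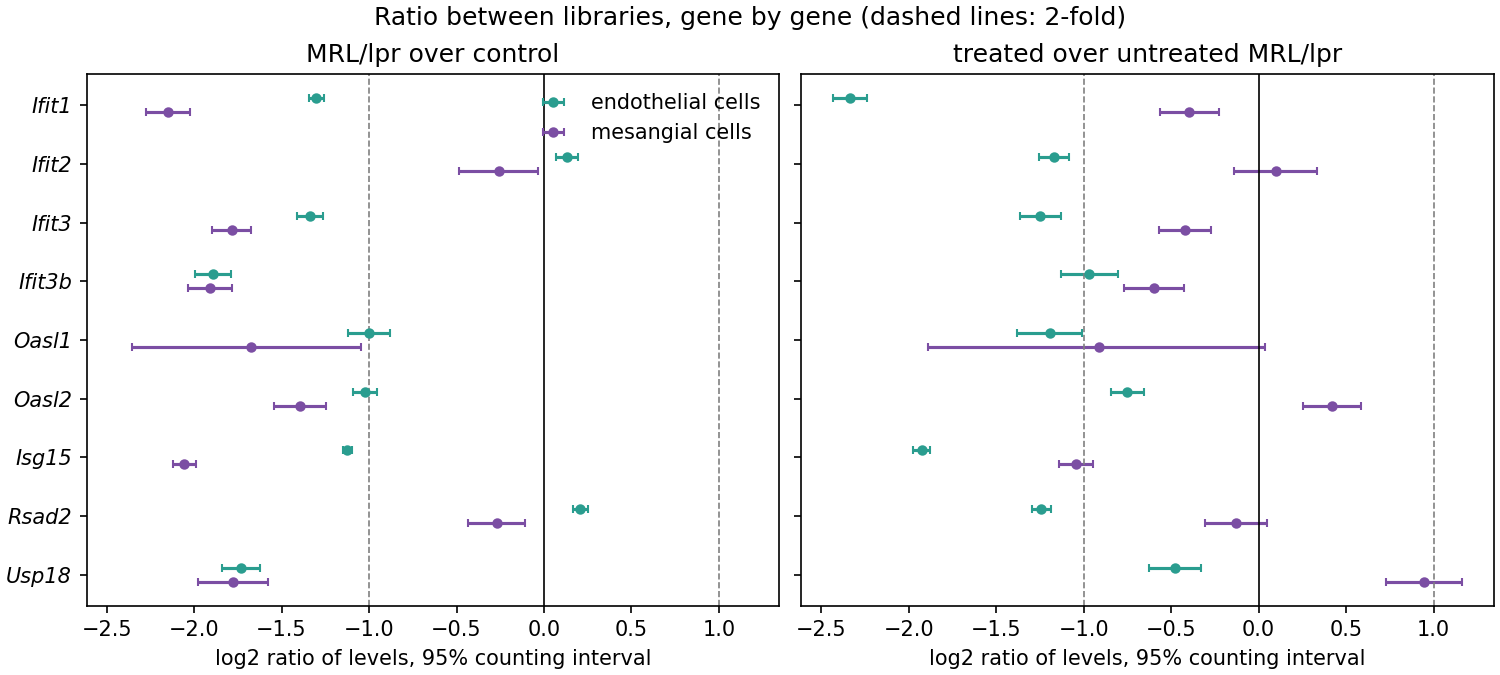
Log2 ratio of the level of each gene between libraries in endothelial and mesangial cells, with 95% counting intervals, a solid line at no difference and dashed lines at 2-fold. Mesangial ratios of MRL/lpr over control (left) lie below 0 for all 9 genes, and endothelial ratios of treated over untreated MRL/lpr (right) lie below 0 for all 9 genes, while *Oasl2* and *Usp18* in mesangial cells have intervals above 0 and those of *Ifit2*, *Rsad2* and *Oasl1* there span 0.

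Genes of the dissociation stress list moved with the second comparison. This list holds 11 immediate early and heat shock genes such as *Fos*, *Jun*, *Atf3* and *Hspa1a*, which are known to be induced when tissue is digested and also by other stimuli. In endothelial cells they made up 3.95% of UMIs in the control, 3.23% in the untreated and 1.40% in the treated library. Between treated and untreated MRL/lpr mice 8 of the 11 genes were at least 2-fold lower, where 4.57% of all genes were, with a median log2 ratio of -1.40. *Atf3* differed most, with 5159 CPM in untreated and 1239 in treated mice, followed by *Fosb* with 1212 and 309 CPM and *Egr1* with 1251 and 343 CPM. Between untreated MRL/lpr and control mice 0 of the 11 were past 2-fold in either direction, and the median was -0.42. What these stress genes share with the member values was not tested beyond the division that follows.

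Endothelial cells were therefore divided by the share of their UMIs from these 11 genes, a division chosen after the data were seen. Cells with under 2% numbered 1296 in the control, 810 in the untreated and 4262 in the treated library, and their summed member levels were 1171, 931 and 577 CPM. Cells with 2% to under 5% numbered 2899, 3267 and 1051, and had 3664, 2023 and 967 CPM. Summed member levels were thus higher in cells with more stress RNA within each library, and the order of the libraries was the same in both divisions. Cells with 5% or more had 4690 CPM in the control library (1856 cells) and 2146 CPM in the untreated library (304 cells), and only 6 treated cells were of this kind. From the second to this division, single genes went either way. *Isg15* was higher, at 1688 and 2310 CPM in the control and 816 and 980 CPM in the untreated library. *Rsad2* in the control was lower, at 389 and 371 CPM, as was *Ifit2* in the untreated library, at 180 and 156 CPM.

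Within the divisions the differences were smaller than over all endothelial cells for the treated library. The log2 ratio of treated over untreated MRL/lpr was -0.69 (-0.75 to -0.63) in cells with under 2% and -1.06 (-1.11 to -1.02) in cells with 2% to under 5%, against -1.51 over all cells. The ratio of untreated MRL/lpr over control was -0.33 (-0.40 to -0.27), -0.86 (-0.88 to -0.84) and -1.13 (-1.18 to -1.07) from the lowest to the highest division. In the second comparison 2 of the 9 genes were at least 2-fold lower in cells with under 2%, where 4.48% of all genes were, and 3 of 9 in cells with 2% to under 5%, where 5.49% were, against 6 of 9 over all cells. In the first comparison 3 of the 9 were so in the lowest division, 7 in the middle one and 7 in the highest, where 5.26%, 5.63% and 8.05% of all genes were. *Isg15* in cells with under 2% was 454, 354 and 165 CPM in the control, untreated and treated libraries, and *Ifit1* was 123, 89.0 and 38.5 CPM. *Rsad2* in the same cells was 184, 232 and 161 CPM, and *Ifit2* was 44.9, 75.6 and 62.5 CPM. *Usp18* in these cells was 61.1 CPM in the control but 27.3 and 26.4 CPM in the MRL/lpr libraries, so its treated and untreated levels were almost equal there.

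**Figure D5:**
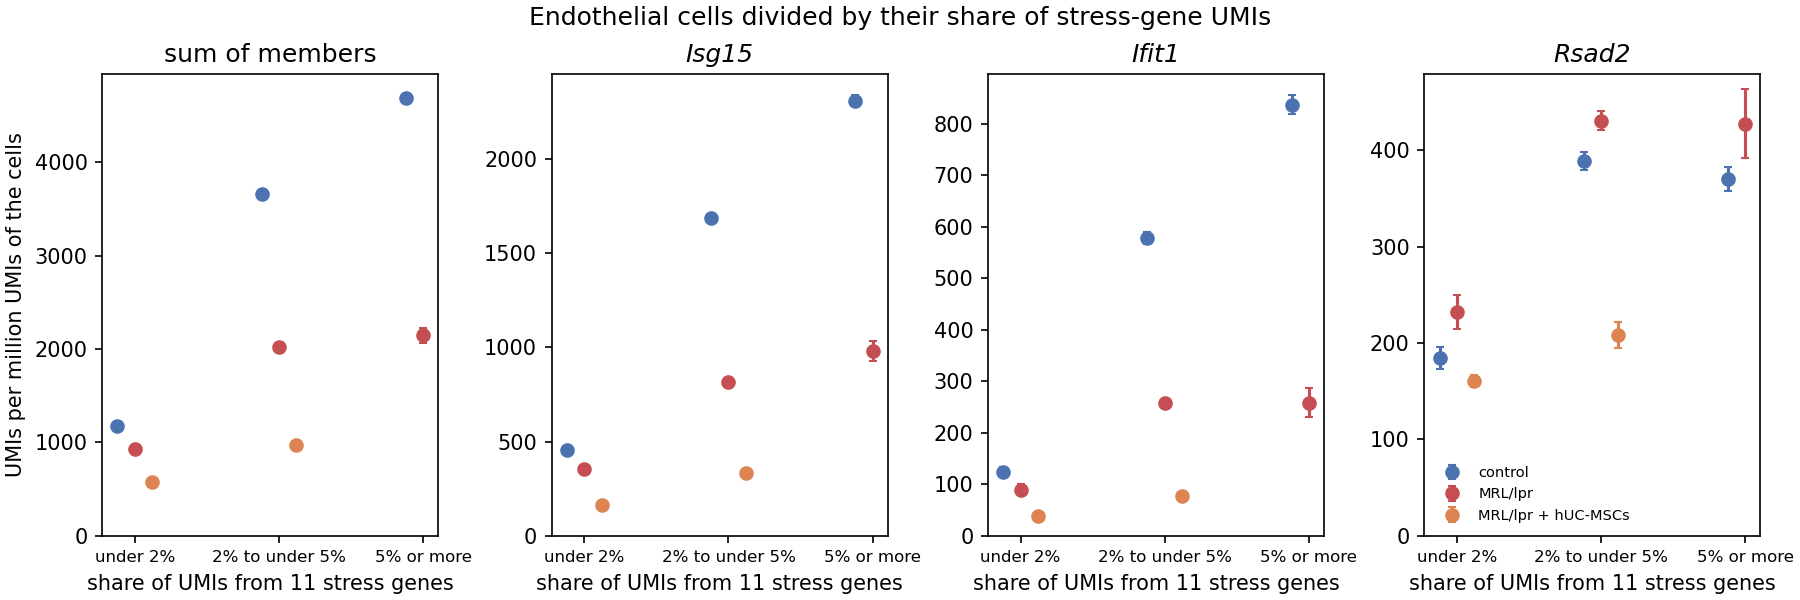
Level of the summed genes, *Isg15*, *Ifit1* and *Rsad2* (UMIs per 1000000 UMIs, linear axes from 0) in endothelial cells divided by the share of their UMIs from 11 stress genes, with 1 point per library and 95% counting intervals; the treated library has no point at 5% or more, where it had 6 cells. The summed level rises from 931 to 2023 CPM in untreated MRL/lpr cells between the first and the second division, and the treated library is lowest in both.

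The ranking of classes in the control library was not the same in cells with under 2% stress UMIs. There endothelial cells had 1171 CPM of the 9 genes, mesangial cells 1800 CPM and myeloid cells 2198 CPM, from 1296, 237 and 134 cells. In the MRL/lpr libraries endothelial cells were above both in such cells, with 931 against 640 and 358 CPM in the untreated and 577 against 448 and 310 CPM in the treated library.

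RNA of other cell types also differed within the endothelial class. Myeloid markers summed to 47.8, 250 and 498 CPM in endothelial cells of the control, untreated and treated libraries, and T/NK markers to 16.7, 45.3 and 36.6 CPM. All 11 myeloid markers were detected in each library, and *Xcl1* of the T/NK list was at 0 in the control. Of these markers, 10 of 11 myeloid and 9 of 10 T/NK genes with enough UMIs were at least 2-fold higher in untreated MRL/lpr than in control mice, where 11.9% of all genes were. Mesangial markers summed to 1386, 2351 and 2848 CPM, and 4 of 12 were at least 2-fold higher in untreated MRL/lpr than in control mice. Tubule markers summed to 91.6, 404 and 84.9 CPM, and 14 of 15 were at least 2-fold lower in treated than in untreated mice, where 4.57% of all genes were. Haemoglobin and other erythroid markers summed to 16170, 6176 and 3498 CPM. The part of these RNAs in the member values was not tested. The share of free RNA estimated from podocyte markers was 5.77%, 16.8% and 20.9% of endothelial UMIs. With this share taken off, the log2 ratios of the sum were -0.96 for untreated MRL/lpr over control and -1.65 for treated over untreated. The share was not estimated from other marker lists. Free RNA at these shares would bring more tubule marker RNA than endothelial cells held in each library. The same was true of myeloid markers in the MRL/lpr libraries. The podocyte estimate is therefore too high for these RNAs, and the ratios with it taken off may be overcorrected. Free RNA held 355, 3685 and 4785 CPM of myeloid markers and 2413, 3110 and 1172 CPM of tubule markers.

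The genes were next counted per cell. Each cell was first thinned to 1000 UMIs, so that depth did not set the count. At least 3 of the 9 genes were then found in 29.1% (27.9 to 30.2) of endothelial cells in the control, 15.3% in the untreated and 2.22% in the treated library. The control value was a low draw, since 20 other draws gave 29.6% to 30.7%, against 14.3% to 15.8% and 1.82% to 2.5% in the untreated and treated libraries. None of the 9 was found in 21.5%, 31.0% and 60.8% of endothelial cells. Without thinning, at least 3 genes were found in 71.7%, 55.5% and 23.4%. These and the following shares of cells were not divided by stress RNA. Cells with under 2% stress UMIs were 1296 of 6051 in the control, 810 of 4381 in the untreated and 4262 of 5319 in the treated library. The part of this in the shares was not tested. In the 100, 52 and 82 endothelial cells with at most 5% ribosomal-protein UMIs the thinned shares were lower in each library, as given at the end. In podocytes, at median depths of 6768, 7192 and 6295 UMIs before thinning, the thinned share with at least 3 genes was 0.603%, 0.108% and 0. The last is for 186 cells, where the interval reaches 1.96%.

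*Isg15* was found in 58.5%, 42.8% and 15.0% of thinned endothelial cells and *Ifit1* in 30.8%, 17.4% and 3.78%. *Rsad2* was found in 22.1%, 26.0% and 12.6% of them, and *Oasl1* in 5.80%, 3.20% and 1.49%. The share of cells with *Isg15* thus differed between libraries in the same order as its level. Single endothelial cells of the control library held up to 100 UMIs of *Isg15* and up to 53 of *Ifit1*, before thinning. The tenth of control endothelial cells richest in the 9 genes held 35.5% of their thinned UMIs, and this was 35.7% in the untreated and 45.7% in the treated library. The median cell held 2, 1 and 0 thinned UMIs of the 9 genes. At counts this low sampling also gathers UMIs in few cells, and its part in these shares was not tested.

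Pairs of the genes were then followed within cells. Only pairs of members were counted, so whether other gene pairs give like values was not tested. Cells were not divided by stress RNA for these counts. Of the 36 pairs of members, taken in one direction, the second gene was found more often in thinned endothelial cells with the first than in those without it for 36 pairs in the control, 35 in the untreated and 32 in the treated library. The intervals of the 2 shares were apart for 35, 23 and 12 of the 36 pairs. The median ratio of the 2 shares was 1.65, 1.65 and 1.54. *Isg15* was found in 78.8% of control endothelial cells with *Ifit1* and in 49.4% of those without. In the untreated library these shares were 54.7% and 40.3%, and in the treated library they were 25.9% and 14.6%. The highest ratio in both MRL/lpr libraries was that of *Ifit3* and *Ifit3b*, at 2.77 and 3.83, whose separate counts are uncertain.

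Kinds of endothelial cell were compared next. Glomerular capillary endothelium, marked by genes such as *Ehd3* and *Kdr*, had 3609, 1932 and 623 CPM of the 9 genes in the control, untreated and treated libraries. Arterial, peritubular and venous endothelium had 2730, 1484 and 901 CPM, from 273, 262 and 413 cells. A cell was put there when these markers together were at least at the level of its capillary markers. No minimum level was set, so cells with few UMIs of either kind of marker could enter. Capillary cells were thus above the other endothelium in the control and untreated libraries and below it in the treated library. The log2 ratio of treated over untreated was -1.63 (-1.67 to -1.60) in capillary cells and -0.72 (-0.82 to -0.62) in the other endothelium. At least 2-fold lower in this comparison were 7 of the 9 genes in capillary cells and 3 in the other endothelium. For untreated MRL/lpr over control it was 5 of the 9 genes in capillary cells and 5 in the other endothelium. The share of all genes past 2-fold was not counted in these kinds. For *Ifit1* the levels were 597, 240 and 41.1 CPM in capillary cells against 326, 174 and 77.8 CPM in the other endothelium.

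In mesangial cells the larger difference was between control and MRL/lpr mice. The sum of the 9 genes was 3.51-fold lower in untreated MRL/lpr than in control mice (log2 -1.81, -1.85 to -1.77), and 7 of 9 genes were at least 2-fold lower, where 5.81% of 13772 genes were. *Isg15* was 969, 233 and 113 CPM in the control, untreated and treated libraries, and *Ifit1* was 276, 62.2 and 47.3 CPM. *Ifit2*, at -0.26 (-0.49 to -0.04), and *Rsad2*, at -0.27 (-0.43 to -0.11), were again the genes that differed least. The stress genes were 3.84%, 2.50% and 0.957% of mesangial UMIs. In mesangial cells with under 2% of such UMIs the 9 genes summed to 1800, 640 and 448 CPM.

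Between treated and untreated MRL/lpr mice the mesangial sum was 1.31-fold lower (log2 -0.39, -0.45 to -0.34). *Isg15* was lower, at -1.05 (-1.14 to -0.95), but *Usp18* was higher, with 25.0 CPM in untreated and 48.2 in treated mice, and so was *Oasl2*, with 48.9 and 65.3 CPM. The genes also had unlike weights in the 2 cell types. In the control library *Oasl1*, *Rsad2* and *Ifit2* were higher in endothelial than in mesangial cells by 3.13, 2.56 and 2.25 on the log2 scale, while *Ifit3* and *Ifit3b* were lower by -0.21 and -0.62.

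Among myeloid cells neutrophils had the highest levels. Cells with neutrophil markers had 6521 (5957 to 7124), 1625 and 1234 CPM of the 9 genes in the control, untreated and treated libraries, from 30, 355 and 334 cells. Neutrophils were above endothelial cells in the control library, where they were 30 cells, and in the treated library, where 334 neutrophils stood at 1234 against 659 CPM, and below them in the untreated library. The other myeloid cells, mononuclear phagocytes, had 1614, 255 and 256 CPM, so the sum in treated and untreated MRL/lpr mice did not differ beyond counting error there (log2 0.01, -0.06 to 0.07). Single genes did, in both directions: 4 had intervals above 0, *Usp18* (0.62), *Ifit2* (0.58), *Oasl2* (0.58) and *Rsad2* (0.29), and 2 below, *Ifit1* (-0.41) and *Isg15* (-0.295). The share of all genes with such intervals was not counted there. *Isg15* in neutrophils was 3188, 974 and 696 CPM, and in mononuclear phagocytes 973, 143 and 117 CPM.

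The other genes of the interferon pathway were followed in endothelial cells from lists of ligands, receptors, sensors, signalling genes and targets. Of 9 interferon ligands, *Ifna1*, *Ifna2*, *Ifna4*, *Ifnb1*, *Ifne*, *Ifnl2* and *Ifnl3* had no UMI in endothelial cells of the 3 libraries. *Ifng*, the ligand made by T and NK cells, had 1, 30 and 15 UMIs in the class. Of 6 receptor genes, 5 had enough UMIs (at least 20 over both libraries), and 0 of these were past 2-fold in either comparison. *Ifnar1*, a chain of the type I interferon receptor, was 16.4, 28.6 and 38.9 CPM, and *Ifnar2* was 143, 178 and 199 CPM, so that both were lowest in the control library.

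Among 10 measured sensors of nucleic acid, 0 were at least 2-fold lower and 1 was higher in untreated MRL/lpr than in control mice, where 5.92% and 11.9% of all genes were. This was *Tlr7*, an endosomal sensor of RNA, on 23 and 7 UMIs. Between treated and untreated mice 2 were lower and *Tlr7* was higher, where 4.57% and 7.13% of all genes were. The 2 were the adaptor *Myd88* with 52.4 and 20.3 CPM and the DNA sensor *Cgas* with 19.0 and 8.09 CPM. Myeloid markers in the endothelial class were in the same order of libraries as *Tlr7*, and the part of myeloid RNA in its values was not tested. Of 9 signalling genes, *Irf7*, which drives interferon production, was the one at least 2-fold lower in untreated MRL/lpr mice, with 280 CPM in control and 119 in untreated mice. *Irf1* was the one at least 2-fold lower after treatment, with 1447 and 375 CPM. The sensor and signalling genes were not divided by stress RNA, which was also lower in the treated library. *Irf9*, a DNA-binding factor of the interferon response, was 131, 90.7 and 74.7 CPM in the 3 libraries, in the same order as the summed members.

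Of 23 other antiviral genes with enough UMIs, 5 were at least 2-fold lower and 0 higher in untreated MRL/lpr than in control mice, where 5.92% and 11.9% of all genes were, with a median log2 ratio of -0.21. The 3 with the largest ratio were *Eif2ak2*, the kinase that halts translation on double-stranded RNA, at -1.36, *Herc6*, the main ligase of ISG15 in mice, at -1.15, and *Oas1g* at -1.07. Between treated and untreated mice 2 were lower and 2 were higher, near the 4.57% and 7.13% of all genes, with a median of -0.20. *Parp14* was at -1.10 and *Ifit1bl2* at -1.10, while *Ifi27l2a* was at 1.31, with 288 CPM in untreated and 715 in treated mice, and *Oas2* was at 1.02. Over all endothelial cells the members had medians of -1.12 and -1.20 in the 2 comparisons, below those of the other antiviral genes in both. The members and lists were chosen with earlier results of these data known, so this difference is description only. The other antiviral genes were not divided by stress RNA.

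Of 15 genes biased to interferon gamma, 0 were at least 2-fold lower and 4 higher in untreated MRL/lpr than in control mice, where 11.9% of all genes were higher, with a median log2 ratio of 0.28. *H2-Aa*, a chain of MHC class II, was 18.4, 218 and 237 CPM in the 3 libraries, and *H2-Ab1* was 50.5, 240 and 254 CPM. *Cxcl9*, a chemokine for T cells, was 1.32, 6.17 and 15.7 CPM, and *Ciita*, the activator of MHC class II genes, was the fourth. Both MHC class II genes are also abundant in myeloid cells, whose markers in the endothelial class were in the same order of libraries. *Cxcl9* was in this order too, and the part of myeloid RNA in its values was not tested. Free RNA held 44.3, 358 and 413 CPM of *H2-Aa* and 47.4, 282 and 322 CPM of *H2-Ab1*, and the part of these RNAs in the endothelial values was not tested. Between treated and untreated mice 2 were lower, *Socs1* at -1.37 and *Irgm1* at -1.25, and 1 was higher, *Cxcl9* at 1.34, where 4.57% and 7.13% of all genes were. The genes biased to interferon gamma were not divided by stress RNA.

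The genes whose level over the 6 classes in 3 libraries was most like that of the summed members were ranked among 14404 genes by Pearson correlation of log2(CPM + 10) over these 18 values, which share libraries and depth. The first 3 were *Rtp4* (r = 0.968), *Ifi44* (0.938) and *Irf9* (0.914), all known interferon-induced genes, and *Herc6* (0.910) was the fifth. The other 6 of the 10 were *Zfp131*, *Tnip2*, *Rlim*, *Stard3*, *Ppp1r15a* and *Ankhd1*, with r from 0.901 to 0.911. *Rtp4* had 315, 182 and 99.7 CPM in endothelial cells of the control, untreated and treated libraries. *Ppp1r15a*, a gene of the stress response, had 1189, 640 and 234 CPM. Among the members, the correlation with the sum of the others ran from 0.771 for *Oasl1* to 0.950 for *Isg15*.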

How the data were processed

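The deposited files hold UMI counts per gene and barcode, which the authors made with Cell Ranger and STAR on mm10, per the labels and the file headers. The Cell Ranger release in the header is not the one in the study's methods. The matrices were unfiltered, so barcodes with at least 1000 UMIs and at most 10% mitochondrial UMIs were kept. The study's limit of 5% ribosomal-protein UMIs was not used, since it leaves 100, 52 and 82 endothelial cells. Classes were set by summed marker levels per 10000 UMIs (endothelial 40, mesangial 50, podocyte 60, myeloid 30, T/NK 16, tubule 50), with at least 2 marker genes found and, relative to these levels, a lead of 2 times over every other class. Barcodes with markers of more than 1 class were left out as possible doublets, and barcodes marked by Scrublet were left out as an alternative. Capillary cells needed a capillary marker level of 20 per 10000 UMIs and 3 times that of the arterial, peritubular and venous markers. Neutrophils were myeloid cells with a neutrophil marker level of at least 100 per 10000 UMIs.

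Counts were summed per class and library and divided by the total. A level has an exact Poisson interval, a share an exact Clopper-Pearson interval, and a ratio the interval of a binomial split of both UMI counts. For shares, each cell was thinned to 1000 UMIs, and 0 kept cells were shallower. Ratios of single genes needed at least 20 UMIs over both libraries. Values were computed with Biopython 1.88 (sequences), scanpy 1.11.5 (Scrublet), SciPy 1.17.1 (intervals), pandas 2.3.3 and NumPy 2.4.6 under Python 3.11.15, and the steps were tested on simulated data. Named genes are the 10 members, up to 3 genes of each pathway list with the largest ratio in each direction, and the 10 genes most like the summed members. Other named genes of the lists were chosen after their values were seen. The members and lists were chosen with earlier results of these data known.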

Additional observations from a re-analysis of the deposited data

Results flagged for a closer look

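5 values stood apart because a gene was higher in treated than in untreated MRL/lpr mice in 1 class while it was lower in endothelial cells. Each difference between classes was not tested, since there is 1 library per group. In mesangial cells the log2 ratio was 0.4178 for *Oasl2* and 0.9436 for *Usp18*, against -0.75 and -0.48 in endothelial cells. In myeloid cells it was 0.4336 for *Usp18* and 0.4958 for *Ifit2*, where *Ifit2* was at -1.17 in endothelial cells. In tubule cells it was 0.9149 for *Oasl2*, on 24 UMIs in the treated and 55 in the untreated library.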

How the results depend on the processing

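The summed genes stayed lower in both endothelial comparisons under every alternative run. With at most 3000 genes per barcode, the log2 ratio was -0.851 for untreated MRL/lpr over control and -1.62 for treated over untreated. With a gate lead 2 times larger it was -0.857 and -1.56, relative to the median of all genes -0.971 and -1.64, with expected free RNA subtracted -0.961 and -1.65, and as a mean over cells -0.845 and -1.61. The free RNA subtraction used the podocyte estimate, which is too high for tubule RNA and, in the MRL/lpr libraries, for myeloid RNA. Without *Ifit3* and *Ifit3b* it was -0.855 and -1.55, and without *Isg15*, chosen after seeing the data, -0.753 and -1.29. Leaving mitochondrial and ribosomal-protein UMIs out of the denominator gave -0.875 for the first comparison. Capillary endothelium gave -1.63 for the second, and the other endothelium -0.879 and -0.72. The cause of these shifts was not tested.

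With at most 5% ribosomal-protein UMIs, which leaves 100, 52 and 82 cells, the ratios were -0.585 and -1.22, with 3 of 8 and 2 of 3 genes with enough UMIs at least 2-fold lower. There *Ifit2* reversed to -0.186 for untreated MRL/lpr over control, on 37 UMIs over both libraries, and *Ifit3* and *Oasl2* to 0.346 and 0.0462 for treated over untreated, on 6 UMIs, below the minimum of 20, and 21 UMIs. The share of cells with at least 3 genes was then 11%, 1.92% and 1.22% in the control, untreated and treated libraries. With 52 and 82 cells, the untreated and treated shares rest on too few cells to be put in order. In the stress divisions, also chosen after seeing the data, the first comparison gave -0.332 under 2%, -0.857 at 2% to under 5% and -1.13 at 5% or more, and the second -0.69 and -1.06 in the first 2 divisions. Under 2%, 3 and 2 genes were at least 2-fold lower, where 5.26% and 4.48% of all genes were. At 2% to under 5%, 3 were in the second comparison, where 5.49% of all genes were. *Oasl1* reversed to 0.0948 under 2% and *Ifit2* to -0.235 at 5% or more, both for untreated MRL/lpr over control. The cause was not tested.

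The share of cells was 27.9% in the control with at most 3000 genes per barcode. Unthinned it was 71.7%, 55.5% and 23.4%. With 1 or more genes it was 78.5%, 69% and 39.2%, and with 5 or more 5.92%, 1.55% and 0.0752%, as the changed definitions imply. Of the single-gene values, 132 stayed within their intervals, 88 moved and 5 reversed. The 2 kinds of endothelium are not in these counts, since single genes were not sorted in this way there. In the other endothelium *Usp18* was at 0.06 (-0.4997 to 0.61) for treated over untreated, against -0.48 over all endothelial cells. No paired analysis was possible because the labels give no replicate numbers, and with 1 library per group none could be left out. Depth limits genes with few UMIs, such as *Oasl1* in mesangial cells.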
